A study of Mus musculus with 12 samples.

Results

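Interleukin-6 (IL-6) signals to the nucleus through a short chain of proteins, and 7 genes that encode its receptor, kinase, transcription factors and feedback inhibitor are described here in the liver and small intestine of LCWE-treated and control mice. Il6ra and Il6st encode the receptor, Jak1 the kinase, Stat3 the signal transducer, Socs3 the feedback inhibitor, and Cebpb and Cebpd a pair of transcription factors of the acute phase. The genes were chosen by symbol as the pathway known to drive acute phase genes of the liver, and all 7 were found among the 34348 genes of the deposited expression table.

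IL-6 binds its alpha receptor, which has little signalling ability of its own, and the pair then engages gp130, a subunit shared by the whole IL-6 family. JAK1, held on the tail of gp130, phosphorylates STAT3, which enters the nucleus and switches on a set of genes within minutes, among them Socs3, whose product binds gp130 and shuts the receptor down. Hepatocytes carry the alpha receptor and answer IL-6 with acute phase proteins such as serum amyloid A, with C/EBP-beta and C/EBP-delta acting beside STAT3 on several of their promoters. Much of this control works through phosphorylation, which RNA levels do not measure.

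Total RNA from the liver and small intestine of C57BL/6 mice was sequenced in 4 groups of 3 libraries: LCWE liver, PBS liver, LCWE intestine and PBS intestine. LCWE is not spelled out in the labels; it is the usual abbreviation of a Lactobacillus casei cell wall extract that induces vasculitis in mice, and columns of the authors' comparison table read LCWECFA, with CFA not explained in any source used. PBS is phosphate-buffered saline, and the labels give no age, dose or time. The libraries carry the numbers 1, 2 and 4 for LCWE and 2, 3 and 4 for PBS in both tissues, and nothing says that each came from its own animal. P-values here therefore reflect only how far these libraries spread, which may be technical. Reads in genes numbered 30294594 to 44921885 per library. Values are RPKM, reads scaled to gene length and to the reads in genes of the library. Alb, the hepatocyte marker albumin, averaged 12083 RPKM in LCWE liver and 17175 RPKM in PBS liver, against 85.4 RPKM in LCWE intestine and 57.4 RPKM in PBS intestine, so this marker went with the tissue labels.

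In liver, Stat3 rose with LCWE and the other 6 genes did not pass the test. All 3 LCWE livers lay above all 3 PBS livers for 6 of the 7 genes, Cebpb being the exception, where 18.7% of all 14404 genes tested had LCWE livers wholly above PBS livers and 8.84% wholly below. The 1 rise among the 7 genes stood against 3.39% of all tested genes that rose and 4.04% that changed in either direction, at a Benjamini-Hochberg adjusted p below 0.05 in limma. Of all called genes 84.0% were higher in LCWE liver, and 73.5% with quantile scaling. Across the 7 genes the median log2 difference of LCWE over PBS liver was 0.57, against 0.06 over all tested genes. All differences were fitted to log2(RPKM + 0.5), a scale that makes changes of low genes look smaller.

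Il6ra, the ligand-binding receptor chain, measured 2.60, 3.20 and 5.39 RPKM in LCWE livers, against 2.15, 1.76 and 1.37 RPKM in PBS livers. The groups did not overlap, and the third LCWE library (replicate 4) stood well above the other two. The fitted difference was 0.86 ± 0.26 log2 (SE), a 1.82-fold difference with a 95% interval of 1.19 to 2.79, and did not pass (adjusted p = 0.133). Il6st, which encodes gp130, measured 21.2, 20.9 and 19.6 RPKM in LCWE livers, against 12.03, 15.4 and 18.5 RPKM in PBS livers. LCWE livers were nearly uniform here, with an SD of 0.829 RPKM against 3.24 RPKM in PBS livers, and the lowest LCWE liver lay close to the highest PBS liver. The difference was 0.43 ± 0.16 log2 and did not pass (adjusted p = 0.209).

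Jak1, the kinase, measured 20.1, 22.9 and 22.5 RPKM in LCWE livers, against 13.4, 17.1 and 18.1 RPKM in PBS livers. The groups were separate by less than the range within either, and the difference of 0.43 ± 0.14 log2 did not pass (adjusted p = 0.154). Stat3, the transcription factor that the kinase activates, measured 13.1, 14.0 and 14.6 RPKM in LCWE livers, against 9.69, 8.80 and 9.15 RPKM in PBS livers. The gap between the groups was wider than the range of either group. Stat3 averaged 13.9 ± 0.761 RPKM in LCWE livers and 9.21 ± 0.450 RPKM in PBS livers (SD, n = 3 each), a difference of 0.57 ± 0.10 log2, or 1.48-fold with a 95% interval of 1.27 to 1.74 (limma, adjusted p = 0.0296). Its log2 difference stayed between 0.49 and 0.61 under every alternative run, but the adjusted p was 0.0599 with quantile scaling and 0.0656 with median-ratio scaling. Without any 1 of 5 libraries (LCWE replicates 1, 2 and 4, PBS replicates 3 and 4) it lay between 0.0980 and 0.160, and without PBS replicate 2 it was 0.0188.

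Socs3, the feedback inhibitor, measured 2.93, 4.55 and 15.3 RPKM in LCWE livers, against 2.48, 1.93 and 1.22 RPKM in PBS livers. Replicate 4 had more than the other LCWE livers together, while LCWE replicate 1 lay just above the highest PBS liver. The mean of LCWE livers was 4.04 times that of PBS livers, but with an SD of 6.71 RPKM in LCWE livers the difference of 1.48 ± 0.55 log2 did not pass (adjusted p = 0.210). Without LCWE replicate 4 it was 0.84 (adjusted p = 0.247).

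The upstream stretches of Socs3, a known target of STAT3, and of Stat3 itself were searched for the letters of a STAT site. Only the stretch of Socs3 held them. Both were taken from RefSeq on GRCm38.p6, which matched 6 of the 7 genes by symbol. Capitals mark a match to TTCNNNGAA, which reads the same on both strands.
Socs3, 250 to 86 bases upstream of the start, chr11:117969452-117969616, minus strand: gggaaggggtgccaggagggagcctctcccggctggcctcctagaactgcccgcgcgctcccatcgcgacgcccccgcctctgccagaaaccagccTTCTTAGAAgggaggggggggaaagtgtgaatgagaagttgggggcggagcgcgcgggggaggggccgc
Stat3, 250 to 1 bases upstream of the start, chr11:100939541-100939790, minus strand: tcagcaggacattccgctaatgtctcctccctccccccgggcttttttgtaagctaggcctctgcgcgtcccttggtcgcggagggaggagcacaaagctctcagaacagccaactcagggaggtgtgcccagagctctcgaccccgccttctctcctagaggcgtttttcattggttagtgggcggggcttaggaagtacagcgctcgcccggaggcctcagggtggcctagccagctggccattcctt
The Socs3 match lies 154 to 146 bases upstream of the RefSeq start, inside an intron of a longer GENCODE transcript. None of the other 5 windows of 250 bases held the letters, and 7.02% of all 32851 such windows do. The C/EBP letters TTGCNNAA, searched on both strands, were in none of the 6 windows and in 9.56% of all windows.

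Cebpb, which encodes C/EBP-beta, had the highest level per length of the 7 genes in every PBS liver and in LCWE replicate 4, but not in LCWE replicates 1 and 2, and was the one whose liver groups overlapped. It measured 20.5, 15.7 and 41.5 RPKM in LCWE livers, against 23.2, 21.1 and 25.5 RPKM in PBS livers. LCWE replicates 1 and 2 lay below every PBS liver and replicate 4 above them all, so that the difference was 0.03 ± 0.33 log2 with all libraries (adjusted p = 0.968) and -0.36 without replicate 4 (adjusted p = 0.358). Cebpd, which encodes C/EBP-delta, measured 1.51, 1.60 and 3.09 RPKM in LCWE livers, against 1.20, 0.57 and 0.92 RPKM in PBS livers. Replicate 4 was again far above the others, and the difference of 0.85 ± 0.27 log2 did not pass (adjusted p = 0.159). The authors' deposited table, which lists genes with p below 0.05 and at least a 2-fold difference, gives Il6ra a log2 fold change of 1.02 (FDR 0.0411), Socs3 2.01 (FDR 0.0456) and Cebpd 1.21 (FDR 0.0561) in liver, and none of the 7 genes for intestine.

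**Figure D1:**
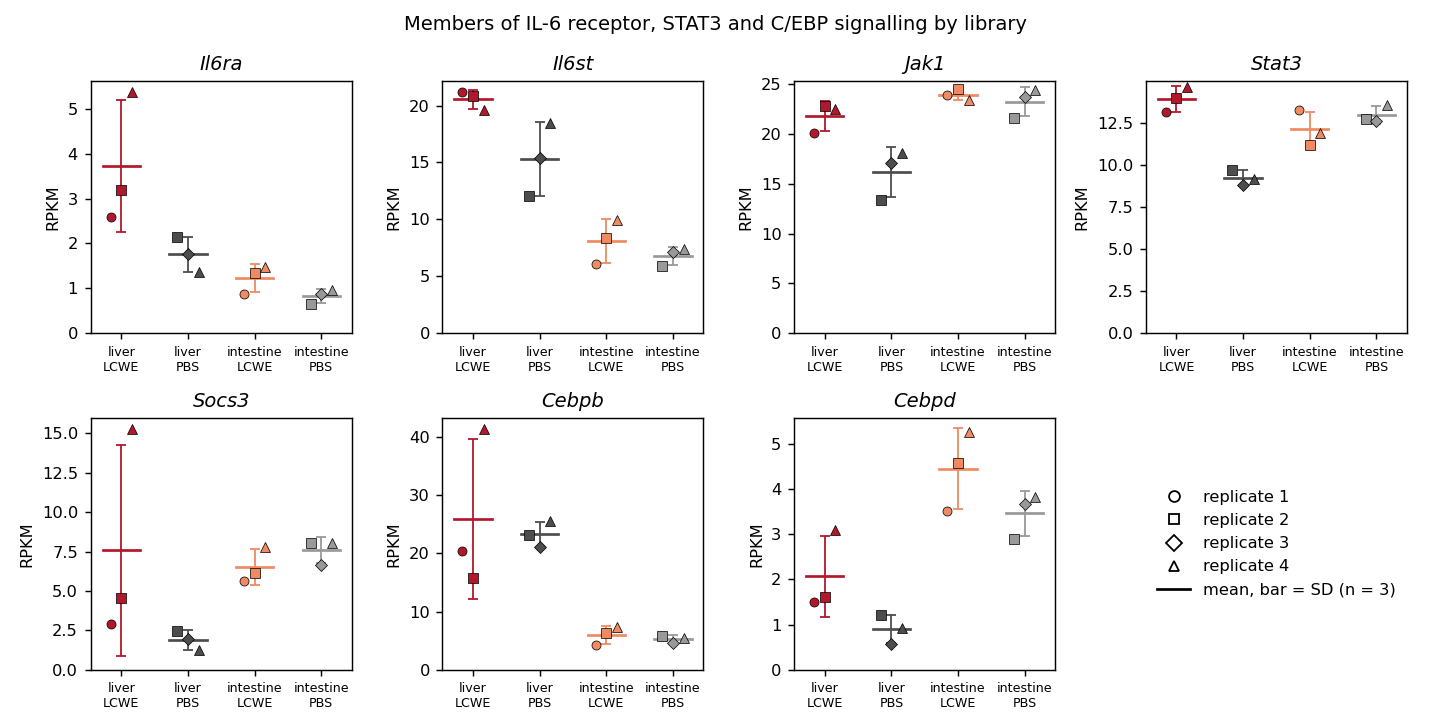
RPKM of each of the 7 genes in each library, with LCWE left of PBS in liver (red, dark grey) and intestine (orange, light grey); lines are group means and bars are SD (n = 3), and marker shapes are replicate numbers. Stat3 separates LCWE from PBS livers with little spread, while Socs3, Cebpb, Cebpd and Il6ra have their highest liver value in LCWE replicate 4.

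The spread within LCWE livers split the pathway. The coefficient of variation was 88.5% for Socs3, 52.9% for Cebpb, 43.0% for Cebpd and 39.4% for Il6ra, each higher than that of at least 92.2% of tested genes. It was 6.93% for Jak1, 5.47% for Stat3 and 4.03% for Il6st. The ratio of replicate 4 to the mean of replicates 1 and 2 was 4.09 for Socs3, 2.29 for Cebpb, 1.99 for Cebpd and 1.86 for Il6ra, against 1.08 for Stat3, 1.05 for Jak1 and 0.933 for Il6st. The receptor chain shared by the family, the kinase and Stat3 thus varied little among LCWE livers, and the feedback gene, both C/EBP genes and the alpha receptor varied a great deal. Replicate 4 held the highest LCWE liver value of 5 of the 7 genes and of 40.2% of all tested genes.

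Replicate 4 was the highest LCWE liver in 8 of 14 tested immediate targets of STAT3 (57.1%), against 40.2% of all tested genes, and the lowest in 3 of them, Steap4 and Icam1 included. Junb, an early response transcription factor, measured 6.61, 5.61 and 39.0 RPKM in LCWE livers, against 11.9, 4.79 and 3.60 RPKM in PBS livers. Pim3, a survival kinase, measured 4.86, 4.03 and 13.7 RPKM in LCWE livers, against 3.84, 3.92 and 4.93 RPKM in PBS livers. Junb and Pim3, named after their values were seen, lay within the PBS range in LCWE replicates 1 and 2, as did Bcl6, while the early gene Fos lay just below it. Replicate 4 was the lowest LCWE liver in 20 of 22 tested acute phase genes, against 34.2% of all tested genes, with Hamp and Cd14 as the exceptions. Orm2, an acute phase glycoprotein, measured 579.6, 1028 and 153.5 RPKM in LCWE livers, against 25.8, 13.3 and 15.7 RPKM in PBS livers. Lcn2, the iron-binding lipocalin, measured 17.0, 19.0 and 4.72 RPKM in LCWE livers, against 0.905, 0.277 and 0.494 RPKM in PBS livers. The library with the most Socs3 and Cebpb therefore had the least of most acute phase transcripts among LCWE livers, though still above PBS livers in these examples; the rank is that of 1 library and was not tested.

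**Figure D2:**
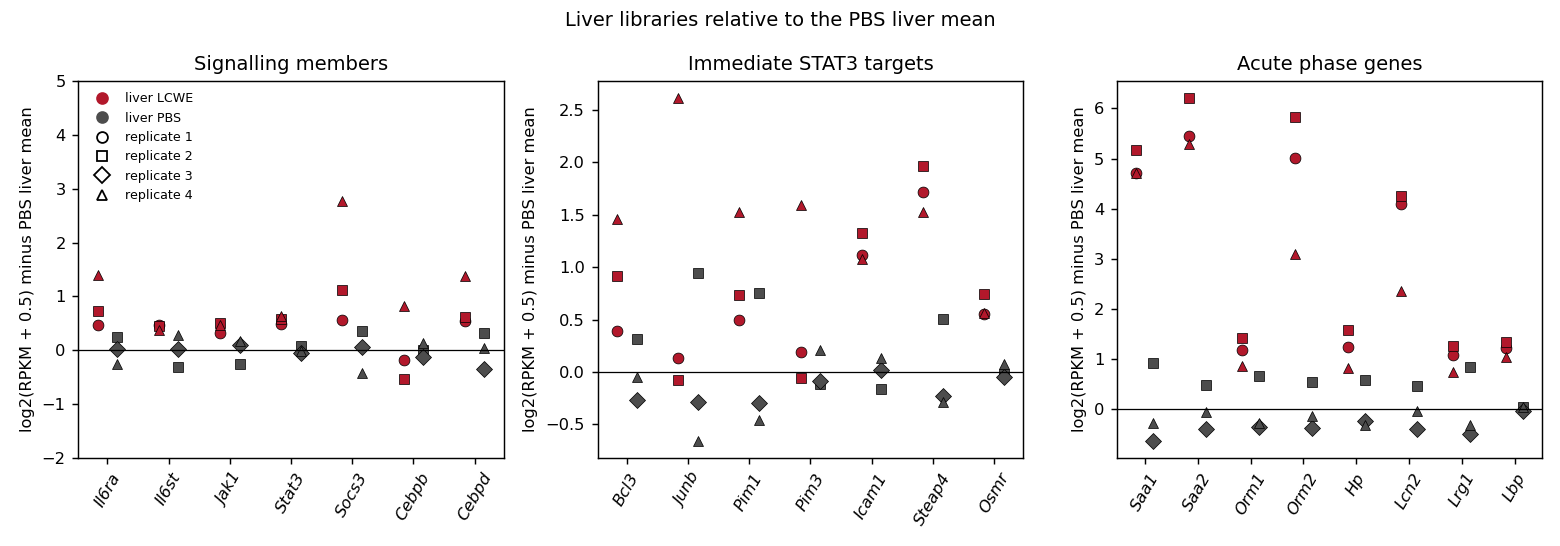
Each liver library's log2(RPKM + 0.5) minus the mean of PBS livers, with LCWE (red) left of PBS (grey) and shapes for replicate numbers, for the 7 pathway genes (left), 7 immediate STAT3 targets (middle) and 8 acute phase genes (right); vertical scales differ. Replicate 4 (triangles) tops Socs3, Cebpb, Junb and Pim3 among LCWE livers and lies at the bottom for Orm2 and Lcn2. The genes drawn were picked by name from 14 tested targets and 22 tested acute phase genes. Hamp and Cd14, the acute phase genes highest in replicate 4, are not drawn.

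Other genes of the pathway were tested in the same liver fit, in which 3.39% of all tested genes rose and 0.646% fell. Of 9 ligands of the IL-6 family, 3 were abundant enough to be tested and none passed. Il6 itself had 4, 4 and 0 reads in LCWE livers and 4, 2 and 2 reads in PBS livers, 8 reads in each group, so a difference in the ligand was not detectable at this depth. Il27, the p28 subunit of interleukin-27, measured 1.52, 1.24 and 0.620 RPKM in LCWE livers, against 0.307, 0.219 and 0.423 RPKM in PBS livers, and did not pass (0.96 log2, adjusted p = 0.0787). Of 6 tested receptors and receptor-cutting proteases, Osmr rose. Osmr, the oncostatin M receptor that pairs with gp130, measured 0.583, 0.739 and 0.587 RPKM in LCWE livers, against 0.228, 0.212 and 0.277 RPKM in PBS livers (0.62 ± 0.12 log2, adjusted p = 0.0463). Osmr was not called with a pseudocount of 0.1 (adjusted p = 0.0603), no filter (0.0695), quantile (0.126) or median-ratio scaling (0.0572) or 1 fit over the 4 groups (0.136), nor without PBS replicate 2 (0.0605), 3 (0.139) or 4 (0.102).

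For 7 other tested JAK and STAT genes, the mean difference was positive in LCWE liver for all 7, as for 60.2% of all tested genes, and none passed in limma. Their median was 0.29 log2, against 0.06 over all tested genes. Jak3, a kinase of lymphoid cytokine receptors, was the 1 gene of these at an unadjusted p below 0.05. Jak3 measured 1.83, 1.98 and 1.57 RPKM in LCWE livers, against 1.11, 0.965 and 0.803 RPKM in PBS livers. Its groups did not overlap, and its difference of 0.65 ± 0.14 log2 did not pass (adjusted p = 0.0531), but was called in voom (0.0498), in 1 fit over the 4 groups (0.0159) and without PBS replicate 2 (0.0336). Stat2, which acts in the response to type I interferons, measured 20.0, 22.4 and 21.6 RPKM in LCWE livers, against 12.5, 17.4 and 20.1 RPKM in PBS livers (0.37 ± 0.18 log2, adjusted p = 0.321). Of 14 other feedback genes 1 rose: Ptpn6, which encodes the phosphatase SHP-1 of blood cells, measured 24.1, 24.4 and 23.5 RPKM in LCWE livers, against 17.8, 15.8 and 17.3 RPKM in PBS livers (0.49 ± 0.09 log2, adjusted p = 0.0387). Ptpn6 was not called with either scaling (adjusted p = 0.0637 and 0.0982), in voom (0.0866) or in 1 fit over the 4 groups (0.0672), nor without any 1 of the LCWE livers or PBS replicates 3 and 4 (0.103 to 0.194). Of 5 other C/EBP family genes none passed; Cebpa, which maintains hepatocyte metabolism, was lower by 0.39 log2 in LCWE liver (adjusted p = 0.295).

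Among 14 tested immediate STAT3 targets 3 rose, against 3.39% of all tested genes, and all 14 were higher by mean difference, against 60.2%. The list median was 0.60 log2, against 0.06 over all tested genes. These 3 were Steap4, Icam1 and Osmr, the last also counted among the receptors. Steap4, a metalloreductase, measured 99.0, 117.9 and 86.9 RPKM in LCWE livers, against 42.7, 25.4 and 24.4 RPKM in PBS livers (1.73 ± 0.23 log2, adjusted p = 0.0152). Icam1, an adhesion molecule for leukocytes, measured 7.07, 8.26 and 6.92 RPKM in LCWE livers, against 2.64, 3.06 and 3.35 RPKM in PBS livers (1.17 ± 0.13 log2, adjusted p = 0.00847). Both were fairly even over LCWE livers. The calls were lost for Icam1 without LCWE replicate 1 (adjusted p = 0.0513) or 2 (0.0572), and for Steap4 without LCWE replicate 1 (0.0788) or 2 (0.0806) or PBS replicate 3 (0.0658). With the replicate number as a block in limma, neither was called (adjusted p = 0.226 for Icam1 and 0.121 for Steap4). Among 22 tested acute phase genes 8 rose (Saa1, Saa2, Saa3, Orm2, Lcn2, Lbp, Cp and Cd14, the last also a monocyte marker), against the same 3.39%. All 22 were higher, against the same 60.2%, and the list median was 1.08 log2. Saa2, a serum amyloid A gene, measured 513.1, 862.4 and 456.9 RPKM in LCWE livers, against 15.8, 8.31 and 10.6 RPKM in PBS livers (5.65 ± 0.30 log2, adjusted p = 0.00327), with reads of the near-identical Saa1 and Saa2 possibly split between them. Lbp, which binds bacterial lipopolysaccharide, measured 14.2, 15.5 and 12.5 RPKM in LCWE livers, against 5.96, 5.62 and 5.99 RPKM in PBS livers (1.19 ± 0.11 log2, adjusted p = 0.00557).

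Of 8 metabolic genes of hepatocytes bound by C/EBP factors 2 fell, against 0.646% of all tested genes. The list as a whole was split, with 4 genes higher and 4 lower by mean difference. Its median was -0.19 log2, against 0.06 over all tested genes. G6pc, the last enzyme of glucose release, fell to 31.2, 35.2 and 62.4 RPKM in LCWE livers, against 106.0, 132.4 and 205.6 RPKM in PBS livers (-1.79 ± 0.33 log2, adjusted p = 0.0379). Gys2, the liver glycogen synthase, fell to 25.7, 26.0 and 31.8 RPKM in LCWE livers, against 44.5, 43.8 and 40.2 RPKM in PBS livers (-0.62 ± 0.12 log2, adjusted p = 0.0392). Both genes were highest among LCWE livers in replicate 4, as were 6 of the 8 genes of this list and 40.2% of all tested genes. With no filter on low values, G6pc and Gys2 did not pass (adjusted p = 0.0824 and 0.0675), and neither did without any 1 of LCWE replicates 1 and 2 and PBS replicates 3 and 4 (0.0874 to 0.190).

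Markers of monocytes and macrophages and of neutrophils moved with the liver groups. The summed level of 10 monocyte and macrophage markers was 321.2, 387.7 and 591.2 RPKM in LCWE livers, against 122.3 to 173.8 RPKM in PBS livers, all 10 being higher and 1 (Ly6c2) under 0.1 RPKM in every liver. The sum of 9 neutrophil markers was 17.2 to 34.8 RPKM in LCWE livers, against 1.69 to 4.57 RPKM in PBS livers, with 8 of 9 higher. S100a9 made up most of that sum, at 16.9, 30.3 and 13.1 RPKM in LCWE livers. The sum of 8 hepatocyte markers was 28872 to 31107 RPKM in LCWE livers, against 32756 to 51286 RPKM in PBS livers, with 2 of 8 higher. Alb was the largest part of that sum and overlapped (10519 to 13391 RPKM in LCWE livers, 13375 to 23555 RPKM in PBS livers). The 2 higher genes, Cps1 and Hnf4a, lay wholly above PBS livers, and 2 others, Ttr and Serpina1a, wholly below. The highest monocyte and macrophage sum was that of replicate 4, the library with the most Socs3, Cebpb, Cebpd and Il6ra. Marco alone gave 108.4, 164.6 and 318.5 RPKM of the sums in LCWE livers. Replicate 4 was the highest LCWE liver in 5 of the 8 tested markers of this list and the lowest in 1, against 40.2% and 34.2% of all tested genes. The part of these cells in the values of Stat3, Ptpn6, Icam1 and the other genes above was not tested, and in bulk tissue fewer cells of a type and less RNA per cell cannot be told apart.

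In intestine none of the 7 genes passed the test, and none of 17510 tested genes did (0%), with 2202 genes at an unadjusted p below 0.05 and 0 genes called by voom. LCWE and PBS libraries overlapped for all 7 genes, where LCWE intestines lay wholly above PBS intestines for 13.2% of tested genes and wholly below for 6.15%. The 7 genes had a median difference of 0.15 log2, against 0.11 over all tested genes. Il6ra measured 0.871, 1.33 and 1.47 RPKM in LCWE intestines, against 0.652, 0.878 and 0.963 RPKM in PBS intestines (0.36 ± 0.19 log2, adjusted p = 0.452). Il6st measured 6.03, 8.32 and 9.92 RPKM in LCWE intestines, against 5.88, 7.10 and 7.36 RPKM in PBS intestines (0.22 log2, adjusted p = 0.586). For both receptor chains LCWE replicate 1 lay within the PBS range and the other two above it.

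Jak1 measured 23.9, 24.5 and 23.4 RPKM in LCWE intestines, against 21.6, 23.7 and 24.5 RPKM in PBS intestines, and its difference of 0.04 log2 had a 95% interval of -0.16 to 0.25. Stat3 measured 13.2, 11.2 and 11.9 RPKM in LCWE intestines, against 12.7, 12.6 and 13.6 RPKM in PBS intestines, with a difference of -0.10 log2 and an interval of -0.33 to 0.13. That interval lies below the liver estimate of 0.57. Socs3 measured 5.61, 6.12 and 7.78 RPKM in LCWE intestines, against 8.05, 6.64 and 8.06 RPKM in PBS intestines (-0.21 log2, adjusted p = 0.525). Cebpb measured 4.33, 6.29 and 7.28 RPKM in LCWE intestines, against 5.87, 4.53 and 5.38 RPKM in PBS intestines (0.15 log2, adjusted p = 0.718). Cebpd measured 3.50, 4.57 and 5.27 RPKM in LCWE intestines, against 2.89, 3.66 and 3.82 RPKM in PBS intestines (0.31 log2, adjusted p = 0.464). LCWE replicate 1 was the lowest LCWE intestine in 5 of the 7 genes, as in 59.9% of all tested genes, and replicate 4 the highest in 5, as in 42.9% of all tested genes. The sum of 8 enterocyte markers was 1487 to 5104 RPKM in LCWE intestines, against 8352 to 19176 RPKM in PBS intestines. Fabp2 and Apoa4 made up most of that sum. All 8 genes were lower by mean, and 4 of them lay wholly below PBS intestines. Fabp1, Vil1, Sis and Cdh17 overlapped, and the LCWE means of Vil1, Sis and Cdh17 were 0.714, 0.805 and 0.765 times the PBS means. The part of enterocytes in the values of the 7 genes was not tested.

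The LCWE effect differed between the tissues for Stat3 and for no other of the 7 genes. Of 18619 genes tested 0.736% differed, and 0.532% had the more positive effect in liver. The liver effect minus the intestinal effect was 0.67 ± 0.13 log2 for Stat3 (95% interval 0.38 to 0.95, limma, adjusted p = 0.0488). The call was close to the threshold. It was lost with quantile or median-ratio scaling and in voom (adjusted p between 0.0852 and 0.111), and without any 1 of 10 of the 12 libraries, the exceptions being PBS liver replicate 2 and LCWE intestine replicate 1. For Socs3 the difference was larger, at 1.70 ± 0.62 log2, and did not pass (adjusted p = 0.265). Jak1 had 0.39 log2 and Cebpd 0.54 log2, with adjusted p of 0.352 and 0.576.

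**Figure D3:**
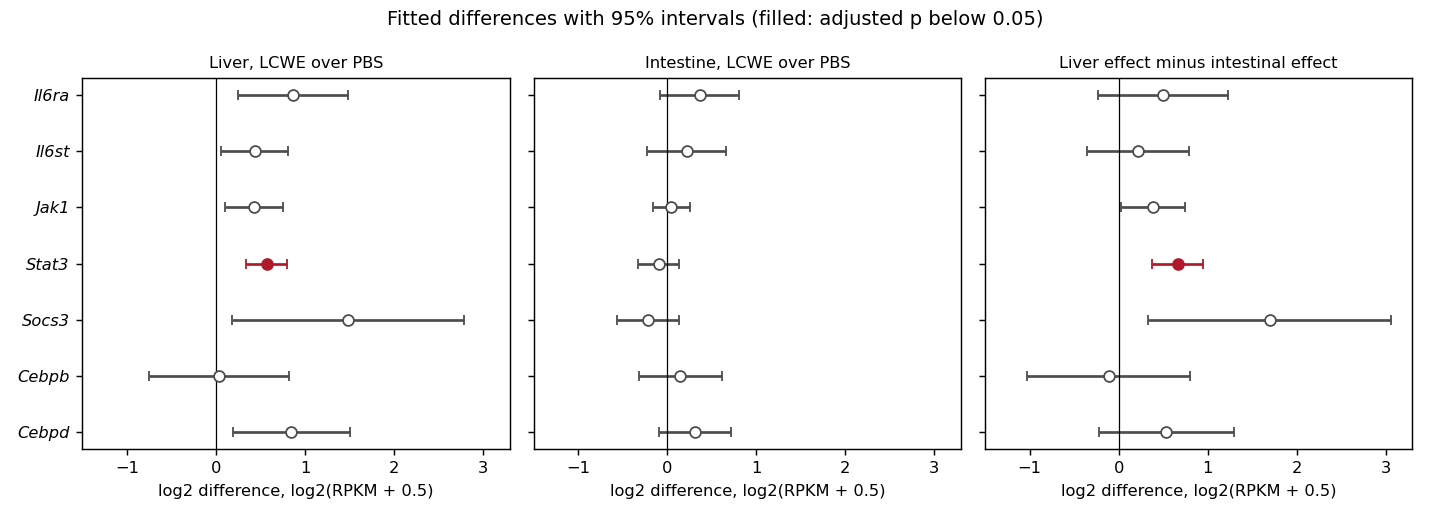
Fitted log2 differences on log2(RPKM + 0.5) with 95% intervals for the 7 genes in liver (LCWE over PBS, left), intestine (LCWE over PBS, middle) and for the liver effect minus the intestinal effect (right); filled points have an adjusted p below 0.05. Stat3 is the filled point at 0.57 in liver and at 0.67 for the tissue difference, and the Socs3 intervals are the widest.

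The PBS groups show the levels of the pathway in each tissue without LCWE. In PBS liver the order by mean RPKM was Cebpb (23.3), Jak1 (16.2), Il6st (15.3), Stat3 (9.21), Socs3 (1.88), Il6ra (1.76) and Cebpd (0.897). Jak1 and Il6st overlapped there, as did Socs3 and Il6ra. In PBS intestine the order was Jak1 (23.3), Stat3 (13.0), Socs3 (7.58), Il6st (6.78), Cebpb (5.26), Cebpd (3.46) and Il6ra (0.831), with overlap between Socs3 and Il6st only. In LCWE liver Cebpb, Jak1 and Il6st overlapped from neighbour to neighbour at the top, and Socs3 moved to a mean of 7.58 RPKM with a range that touched those of both neighbours, Stat3 and Il6ra. In LCWE intestine Jak1, Stat3 and Il6ra stood apart from their neighbours and the 4 genes between Stat3 and Il6ra overlapped in turn.

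Between PBS liver and PBS intestine all 7 genes differed on the deposited scale, where 77.6% of 17253 tested genes did (16.9% higher and 60.7% lower in liver). Their libraries did not overlap, as for 18% of tested genes wholly above and 63.3% wholly below in liver. The receptor genes and Cebpb were higher in liver: Cebpb by 2.05 ± 0.13 log2 (4.13-fold), Il6st by 1.10 ± 0.17 and Il6ra by 0.76 ± 0.17. Socs3 (-1.80 ± 0.21 log2) and Cebpd (-1.52 ± 0.20) were lower in liver, and these 5 genes kept their directions and calls under every scaling. The median of all tested genes was -0.71 log2 as deposited, 0.01 with quantile scaling and -0.06 with median-ratio scaling, and the higher share of called genes was 21.8% as deposited and 50.3% with quantile scaling. Stat3 was -0.47 log2 as deposited and 0.12 with quantile, 0.29 with median-ratio scaling and 0.29 in voom. Jak1 was -0.52 as deposited, -0.05 with quantile and 0.26 with median-ratio scaling and 0.25 in voom. The direction of Stat3 and Jak1 between the tissues thus turned with the scaling.

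**Figure D4:**
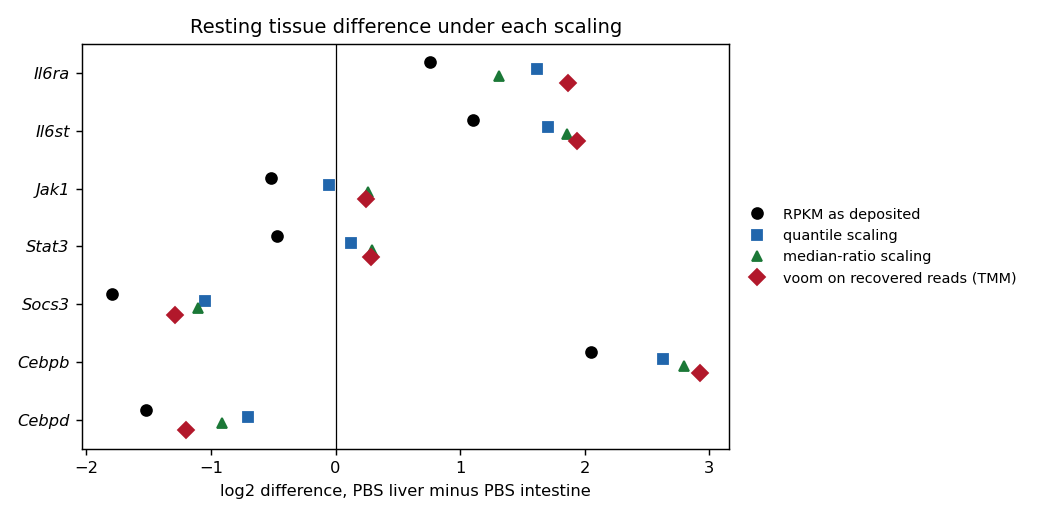
Log2 difference of PBS liver minus PBS intestine for the 7 genes on RPKM as deposited (circles), after quantile scaling (squares), after median-ratio scaling (triangles) and in voom on recovered reads (diamonds). Cebpb, Il6st and Il6ra stay right of 0 and Socs3 and Cebpd left of it, while Stat3 and Jak1 change side.

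A ratio of genes within a library does not depend on that library's scaling factor. The ratio of Cebpb to Cebpd was 13.6, 9.85 and 13.4 in LCWE livers, against 19.3, 36.7 and 27.8 in PBS livers. The groups did not overlap, and the two-sided exact permutation p was 0.1, the smallest that 3 against 3 libraries allow. The ratio of Socs3 to Stat3 was 0.223, 0.325 and 1.04 in LCWE livers, against 0.256, 0.219 and 0.134 in PBS livers (exact permutation p = 0.2). LCWE replicate 1 lay within the PBS range, so this ratio rested on the other two LCWE livers. The ratio of Il6ra to Il6st was 0.144, 0.160 and 0.148 in LCWE intestines, against 0.111, 0.124 and 0.131 in PBS intestines, without overlap (exact permutation p = 0.1), and overlapped between the groups in liver.

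Across the 12 libraries, after the mean of each tissue was subtracted, Il6ra and Cebpd followed each other most closely among the 7 genes (Pearson r = 0.938), then Il6ra and Socs3 (0.863) and Socs3 and Cebpd (0.815). Stat3 went with Socs3 at 0.779 and with Cebpb at 0.027. These correlations are descriptions over LCWE and PBS libraries together, in which the treatment difference and any differences in depth or tissue makeup remain. LCWE liver replicate 4 carried part of them: without it, Il6ra and Cebpd stood at 0.868, Il6ra and Socs3 at 0.682, Socs3 and Cebpd at 0.536 and Stat3 and Socs3 at 0.772, while Stat3 and Cebpb stood at -0.653 and Socs3 and Cebpb at -0.404, against 0.525 with it. Among 10502 genes, those most like Socs3 were Bcl3 (0.919), a protein of the I-kappaB family, Cxcl1 (0.902), a neutrophil-attracting chemokine, and Ssr2 (0.899). Without that replicate they stood at 0.836, 0.790 and 0.611. Cxcl1 measured 15.4, 18.3 and 116.7 RPKM in LCWE livers, against 8.78, 0.893 and 1.08 RPKM in PBS livers, with its highest value in replicate 4 as for Socs3. The genes most like Stat3 were Arfgap3 (0.972), Il10rb (0.960), a subunit of the interleukin-10 receptor, and Pxk (0.957). Those most like Cebpd were Dok3 (0.944), C1qa (0.941), a complement gene of macrophages, and Sap25 (0.941), and those most like Il6ra were Irf2bpl (0.946), Cfp (0.943), which encodes properdin, and Acer2 (0.941). Il6st went with Col6a3 (0.978), a collagen gene, Xlr (0.969) and Zfp35 (0.968), and Jak1 with Clasp1 (0.971), Nup98 (0.960) and Pikfyve (0.960).

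Tmem189 was the gene most like Cebpb (0.976), followed by Fam63b (0.912) and Ccnl1 (0.850). Tmem189 shares 312 of the 1504 exonic bases of Cebpb, which lies on mm10 at chr2:167688915-167690418 on the plus strand as a single exon. Strand use in counting is not stated, so reads there cannot be assigned to either gene with certainty. Il6ra (chr3:89864059-89913196, minus strand) shares 242 of 8642 exonic bases with Gm42809, which measured 3.29, 3.87 and 6.37 RPKM in LCWE livers, against 1.12, 1.91 and 1.63 RPKM in PBS livers. Cebpd (chr16:15887286-15891031, plus strand) shares 559 of 3746 exonic bases with Spidr, and Stat3 (chr11:100885098-100939540, minus strand) shares 72 of 9527 with Stat5a. Jak1 (chr4:101152367-101265282, minus strand) shares 4 of 7227 with Raver2. Socs3 (chr11:117966079-117970047, minus strand) and Il6st (chr13:112464070-112510086, plus strand) share none. All 7 are protein-coding genes in GENCODE M21 at these positions.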

How the data were processed

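RNA libraries were made by the submitters with standard Illumina protocols from TRIzol-extracted, DNase-treated total RNA, per the labels' protocols. The authors deposited RPKM per gene and library. Tools in the submitters' processing notes are edgeR 3.12.1, featureCounts, Subread 1.5.1 and Trimmomatic 0.36, with mm10 as the build; no source used names the aligner. RPKM times gene length gave whole read counts for 100% of values (tolerance 0.001) in the deposited table. Of its 16 library columns, 12 matched samples and 4 were not used. The authors' deposited table of log2 fold changes, p-values and FDR was used only for the 7 genes.

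The 7 genes, the gene lists and the tests were chosen with earlier results of these data known. Genes reaching RPKM 0.5 in 3 or more libraries of a comparison were tested on log2(RPKM + 0.5) using limma 3.58.1 under R 4.3.3 (eBayes with trend, two-sided, Benjamini-Hochberg over all tested genes, called below 0.05). Each tissue was fitted apart, and the tissue difference in 1 fit over 4 groups. Ratios were tested by exact permutation. The named genes are the 7 genes, the 3 tested genes of each pathway list with the smallest p per tissue, and the 3 genes most correlated with each of the 7. Junb, Pim3, Fos, Bcl6, Orm2, Lcn2, Saa3, Cp, Cd14, Hamp and the genes that share exons were named after their values were seen. Alternatives changed the pseudocount (0.1 or 1), the filter (none or RPKM 1) or the scaling (quantile, median-ratio), ran limma's voom with TMM scaling on the recovered counts, added a replicate block, fitted the 4 groups together or left out each library. Other settings of the likeness were added after seeing the data. Depth of 30294594 reads or more per library leaves counting error small except for genes of few reads such as Il6. One gene of the pathway lists is not reported here. The procedure was tested on simulated data.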

Additional observations from a re-analysis of the deposited data

Results flagged for a closer look

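Stat3 was singled out because its LCWE effect differed between the tissues in the test of the difference itself. The liver effect minus the intestinal effect was 0.665 log2 (SE 0.131, limma, adjusted p = 0.0488). It was 0.57 log2 in liver, with all 3 LCWE livers above all 3 PBS livers, and -0.10 log2 in intestine, where the groups overlapped. Saa2 was singled out by the same test, at 5.731 log2 (SE 0.343, adjusted p = 6.14e-05). Its effect was 5.65 log2 in liver and -0.08 log2 in intestine.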

How the results depend on the processing

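The number of genes called in liver was 582 in the report's fit, 335 with no filter, 898 in 1 fit over the 4 groups, and 55 (without LCWE replicate 2) to 943 (without PBS replicate 2) with 1 library left out. In intestine it was 0, with 213 in 1 fit over the 4 groups and 0 to 70 (without LCWE replicate 1) with 1 library left out. For the tissue difference it was 137, with 210 in voom and 20 to 461 with 1 library left out. For PBS liver against PBS intestine it was 9276 to 13095 with 1 library left out. Without 1 PBS intestine the filter of 3 libraries left only 14260 to 14279 genes to test there, against 17253 with all libraries. In the LCWE comparisons, pathway genes near no difference changed sign, and the cause was not tested. Cebpb in liver was -0.042 log2 with median-ratio scaling and -0.044 in voom, and -0.36 to 0.32 with 1 library left out. Jak1 in intestine was -0.063 with median-ratio scaling, -0.066 in voom and -0.0078 to 0.080 with 1 library left out. With 1 library left out, Cebpb ranged from -0.0016 to 0.34 log2 in intestine and from -0.51 to 0.18 for the tissue difference, and the ligand gene Ctf1 from -0.17 to 0.034 in liver. Between PBS tissues Stat3 and Jak1 also changed sign with the scaling, though both were called as deposited, at -0.47 and -0.52 log2. Stat3 was 0.12 there with quantile, 0.29 with median-ratio scaling and 0.29 in voom, and Jak1 0.26 with median-ratio scaling and 0.25 in voom. The log2 ratio of Il6ra to Il6st was higher in LCWE than in PBS intestine by 0.31, and by 0.14 with 0.5 added to RPKM. Of 447 recomputed values of the 7 genes, 409 kept their direction and side of the threshold, 23 lost the call and 15 changed sign. That count includes genes that were not called in any run and the large differences between PBS tissues. Stat3 was the only one of the 7 genes called for LCWE in the report's limma fits. The authors' deposited table instead gives Il6ra (FDR 0.0411) and Socs3 (FDR 0.0456) below 0.05 in liver. The Stat3 call held in 7 of 15 alternatives in liver and in 6 of 20 for the tissue difference.

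Libraries of the same replicate number did not deviate together: their correlations were -0.083 to 0.107 over 10 pairs, against -0.158 to 0.103 over 26 pairs of different number. With the number as a replicate block, 24 genes were called in liver and 0 in intestine. For the tissue difference the block was treatment and number together, which paired liver and intestine libraries, and 12 genes were called. The labels do not say that such pairs came from the same mouse. The block fit of Stat3 gave 0.58 log2 in liver (adjusted p = 0.532) and 0.67 for the tissue difference (adjusted p = 0.155), and that of Ctf1 in liver 0.083 log2. Osmr, Ptpn6, Icam1, Steap4, G6pc and Gys2 were not called in the liver block fit either (limma, adjusted p from 0.0985 to 0.629). Within a tissue only replicates 2 and 4 are shared, so the block fit compares fewer libraries.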

Other observations

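In intestine the 8 lists of pathway and target genes held no gene that passed. LCWE intestines lay wholly above PBS intestines for 12 of their 78 tested genes (15.4%), against 13.2% of all tested genes, and wholly below for 7 (8.97%), against 6.15%. Jak2, a kinase used by receptors of the IL-6, growth hormone and interferon gamma families, measured 32.5, 26.8 and 25.1 RPKM in LCWE intestines, against 35.8, 39.8 and 36.7 RPKM in PBS intestines (-0.41 ± 0.12 log2, limma, adjusted p = 0.286). Fos, an early response gene, measured 18.0, 10.1 and 11.8 RPKM in LCWE intestines, against 19.9, 29.7 and 42.5 RPKM in PBS intestines (-1.15 ± 0.31 log2, adjusted p = 0.268). Both were lower in every LCWE intestine, while Socs1, a feedback inhibitor of interferon signals, measured 2.14, 1.16 and 1.60 RPKM in LCWE intestines, against 1.03, 0.538 and 0.866 RPKM in PBS intestines (0.69 ± 0.23 log2, adjusted p = 0.326). C3, the central complement component, measured 74.5, 111.8 and 110.0 RPKM in LCWE intestines, against 40.6, 61.3 and 68.1 RPKM in PBS intestines (0.81 ± 0.24 log2, adjusted p = 0.2998). Pck1, the first committed enzyme of glucose synthesis, measured 10.3, 8.29 and 8.55 RPKM in LCWE intestines, against 14.9, 14.0 and 14.4 RPKM in PBS intestines (-0.65 ± 0.11 log2, adjusted p = 0.186). Pck1 was called without LCWE intestine replicate 1 (-0.74 log2, adjusted p = 0.0441).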
